A study of Mus musculus with 14 samples.

Results

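The genes of the cytosolic ribosomal proteins were taken from the RNA-seq of sorted dorsal horn microglia as every symbol that starts with Rpl or Rps followed by a digit, with Rplp0, Rplp1, Rplp2 and Rpsa. The S6 kinase genes (9 symbols starting with Rps6k), 77 symbols marked as pseudogenes by -ps, and the 2 l1 paralogues Rpl7l1 and Rpl22l1 were left out. The rule returned 88 of the 14329 genes. They comprised all 46 large subunit genes and all 31 small subunit genes of the lists used here, together called the 77 subunit genes below, and 11 other symbols. The other symbols were Rpl3l, Rpl6l, Rpl36al, Rpl37rt, Rpl39l, Rps3a2, Rps3a3, Rps4l, Rps19bp1, Rps27l and Rps27rt, of which Rps19bp1 encodes a binding partner of RPS19 and not a ribosome subunit. Of the 88 genes, 87 had 10 reads or more in 7 or more libraries and were tested, and Rpl3l was not.

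The ribosome is built from a large and a small subunit, each an assembly of ribosomal RNA and many different proteins in fixed proportions. The mRNAs of these proteins begin with a pyrimidine run, the 5′ terminal oligopyrimidine (TOP) tract, through which their translation responds to the kinase complex mTORC1 and the RNA-binding protein LARP1. Microglia are the resident macrophages of the brain and spinal cord.

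The study asked how spinal microglia respond to inflammatory arthritis in wild type (WT) mice and in TASTPM mice, a model of Alzheimer's disease. The 6-month-old mice, male and female, were on the C57BL/6 background. TASTPM mice were heterozygous for human APP with the Swedish mutation and for a second human transgene, both under the neuronal murine Thy-1 promoter, and WT mice were bred from heterozygous TASTPM mice and carried neither transgene. Labels do not give the sex of each library, and sex-linked genes were unevenly spread over the groups. Xist, the RNA of the inactive X chromosome, stood at 1706 to 5816 normalized counts in 1 of 3 WT Control ST, 2 of 4 WT K/BxN ST, 2 of 3 TASTPM Control ST and 1 of 4 TASTPM K/BxN ST libraries, and at 0 to 202 in all others. WT Control ST library 3 had both Xist, at 1706, and 4 Y-linked genes, at a sum of 852 normalized counts. Arthritis was induced by serum transfer (ST) from K/BxN mice, which develop arthritis spontaneously, and Control ST mice received pooled serum of KRN/C57 mice. At day 5 RNA was taken from 2000 CD45low CD11b+ CX3CR1+ cells of the dorsal lumbar spinal cord per library. The gating scheme of the study also left out Ly6C+ and CCR2+ cells, a gate that would remove classical monocytes. There were 4 libraries for WT K/BxN ST, 3 for WT Control ST, 4 for TASTPM K/BxN ST and 3 for TASTPM Control ST. Library numbers in TASTPM K/BxN ST are those of the labels, and in the other groups they follow the order of the deposited columns.

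The libraries held 14223015 to 20239175 reads on genes. Microglial markers took between 1.60% and 6.21% of the reads. Monocyte markers took 0.576% to 1.10% of the reads in 4 libraries, WT K/BxN ST libraries 1 and 2 and TASTPM K/BxN ST libraries 1 and 2, and 0.00131% to 0.00703% in the other 10. In the same 4 libraries microglial markers took 1.60% to 3.86% of the reads, against 4.69% to 6.21% in the other 10. Neutrophil markers took 1.18% to 1.29% in 3 of the 4 and 0.0623% in WT K/BxN ST library 2, against 0.0243% to 0.0708% in the other 10. Markers of border-associated macrophages took 0.00681% to 0.0174% in the 4 libraries and 0% to 0.00534% in the other 10. Xist was at 0 to 12.5 normalized counts in all 4. In bulk samples of this kind, a change in the number of cells of a type and a change in RNA per cell cannot be told apart. These 4 libraries are called the monocyte-marker libraries below. They were set apart after the data were seen, by these markers and not by a label of the study.

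Several TOP tracts are shown because they are a sequence feature for which this gene family is known and which the selection by symbol did not use. Each line gives 30 bases of the RefSeq start window (table build GRCm38.p6), from 10 bases before the annotated start to 20 bases from it, read 5′ to 3′ on the gene's strand. The windows were found again in GRCm39, whose coordinates are given, and capitals mark the unbroken pyrimidine tract that begins at the start with a C.
Rps6, chr4:86775585-86775614, minus strand: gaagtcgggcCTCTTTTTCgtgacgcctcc
Rps18, chr17:34174620-34174649, minus strand: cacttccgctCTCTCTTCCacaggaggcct
Rps27, chr3:90120936-90120965, minus strand: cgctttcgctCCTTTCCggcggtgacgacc
Rpl14, chr9:120400573-120400602, plus strand: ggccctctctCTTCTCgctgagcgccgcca
Rplp2, chr7:141027554-141027583, plus strand: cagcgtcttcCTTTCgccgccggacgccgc
Rpl38, chr11:114559396-114559425, plus strand: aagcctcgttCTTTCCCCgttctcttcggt
Rps10, chr17:27854199-27854228, minus strand: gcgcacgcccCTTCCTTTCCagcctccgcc

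Start windows of 300 bases were given for 57 of the 77 subunit genes. A C followed by at least 4 pyrimidines stood exactly at an annotated start, on the gene's strand, in 13 of the 57 genes (22.8%) and in 3.01% of all 27025 genes with a window. Within 10 bases on either side of the start such a run was found in 34 of the 57 (59.6%) and in 34.4% of all genes. The letters CGGAAG, the core of the sites bound by ETS factors such as GABPA, were searched on both strands of the whole window and were present in 40 of the 57 (70.2%) and in 18.8% of all genes. The reverse complement CTTCCG starts with 5 pyrimidines and can therefore overlap a tract. A tract stood at the start of Rps6, read at a mean of 3435 normalized counts, and at that of Rps10, read at a mean of 20.3.

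Levels were compared between members per kilobase of coding sequence. The median subunit gene had 3026 normalized counts per kilobase (mean over the 14 libraries), and 74 of the 77 had a mean of at least 100 normalized counts and at least 806 per kilobase. Rpl41, which encodes the smallest ribosomal protein, was the highest on this scale at 18583 per kilobase and was singled out after its value was seen. Rpl13, also of the large subunit, stood at 10604 per kilobase. Before division by length Rpl41 was lower, with a mean of 2564 normalized counts against 6712 for Rpl13. Rpl41 has 138 coding bases and 560 annotated exon bases, and Rpl13 has 633 and 806. Counts were taken per gene, so the order of levels given here depends on the use of coding length. Levels per kilobase of exon were not compared. Rplp0, the base of the ribosomal stalk that recruits translation factors, stood at 5534 per kilobase, close to its partner Rplp1 at 5334 per kilobase and above Rplp2 at 3352 per kilobase. Rpl3 and Rpl4, both core proteins of the large subunit, were at 4247 and 3927 per kilobase, and Rps3, which lies at the mRNA entry channel of the small subunit, was at 5979 per kilobase.

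The 3 subunit genes with a mean below 100 normalized counts were Rpl24, Rps10 and Rpl13a, the last named after its value was seen. Rpl24 was at 26.6, Rps10 at 41.0 and Rpl13a at 113 normalized counts per kilobase. Other annotated genes covered 81.5% of the exon bases of Rpl24, 74.3% of Rps10 and 59.3% of Rpl13a in the annotation used here, which is later than that of the authors. Overlap was also high in genes read at ordinary levels, 71.6% for Rps18 and 68.9% for Rpl35, and its part in the low values was not tested.

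The 88 genes together took 0.549% to 1.52% of the reads on genes. The subunit genes made up 98.5% of these reads. In WT Control ST the share was 0.877%, 0.681% and 0.628%, and in TASTPM Control ST it was 0.549%, 1.01% and 0.594%. The K/BxN ST libraries had 1.40%, 1.18%, 0.650% and 0.604% in WT mice. Those of TASTPM mice had 1.52%, 1.19%, 0.569% and 0.632%. The 4 monocyte-marker libraries were thus the highest of the 14 and the other 4 K/BxN ST libraries lay among the Control ST libraries. With counts of this size the 95% Wilson interval was narrow, as in TASTPM K/BxN ST library 1, where it ran from 1.515% to 1.527%, and such intervals cover counting error only. The group values were 0.959% ± 0.394 (SD, n = 4) in WT K/BxN ST, 0.728% ± 0.131 (SD, n = 3) in WT Control ST, 0.978% ± 0.457 (SD, n = 4) in TASTPM K/BxN ST and 0.717% ± 0.253 (SD, n = 3) in TASTPM Control ST. In each genotype the K/BxN ST and Control ST libraries overlapped, and the difference in means was smaller than the SD of the K/BxN ST libraries.

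**Figure D1:**
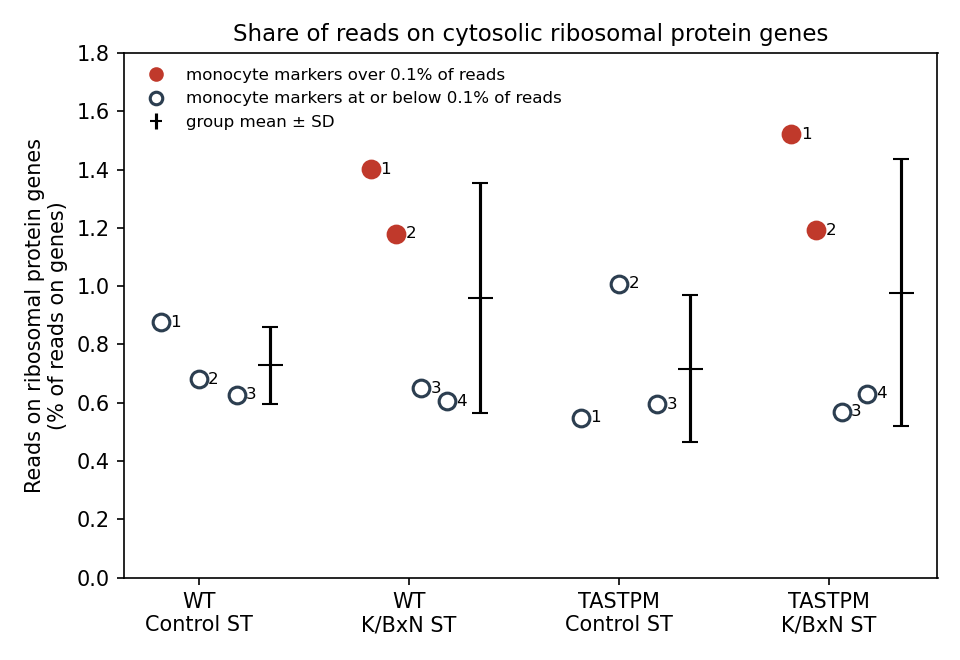
Share of reads on the 88 ribosomal protein genes in each library, in percent of reads on genes, by group, with the library number beside each point and the group mean ± SD at its right. The filled points, the 4 libraries with over 0.1% of reads on monocyte markers, lie at 1.18% to 1.52% and all others at 0.549% to 1.01%.

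The subunit genes moved together from library to library. On the log2(normalized count + 1) scale the SD over the 14 libraries had a median of 0.57 over the 77 genes, and it fell to 0.21 when each library's median deviation of the 77 genes was subtracted. The SD became smaller in 75 of the 77 genes. Among the 74 genes with a mean of at least 100 normalized counts, the highest library was between 2.23-fold (Rpl30) and 5.71-fold (Rps28) above the lowest. The least variable of the genes that passed the filter were Rps3, Rpl30 and Rps4x, with SDs of 0.40, 0.42 and 0.42, and the most variable were Rps10, Rpl39l and Rpl36al, with SDs from 1.91 to 2.48 at means of 9.48 to 21.8 normalized counts. TASTPM K/BxN ST library 1 was the highest library for 45 of the 77 genes and WT K/BxN ST library 1 for 24.

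Libraries 1 to 4 of TASTPM K/BxN ST had median deviations of the 77 subunit genes from the 14-library mean of 0.85, 0.58, -0.54 and -0.38. Those of WT K/BxN ST had 0.78, 0.51, -0.28 and -0.42. The Control ST libraries had 0.27, -0.22 and -0.36 for WT mice and -0.55, 0.39 and -0.50 for TASTPM mice. Each K/BxN ST group therefore held 2 libraries above and 2 below the mean of all libraries, and each Control ST group held 1 above and 2 below. All genes tested had medians between -0.01 and 0.10 in the same libraries.

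**Figure D2:**
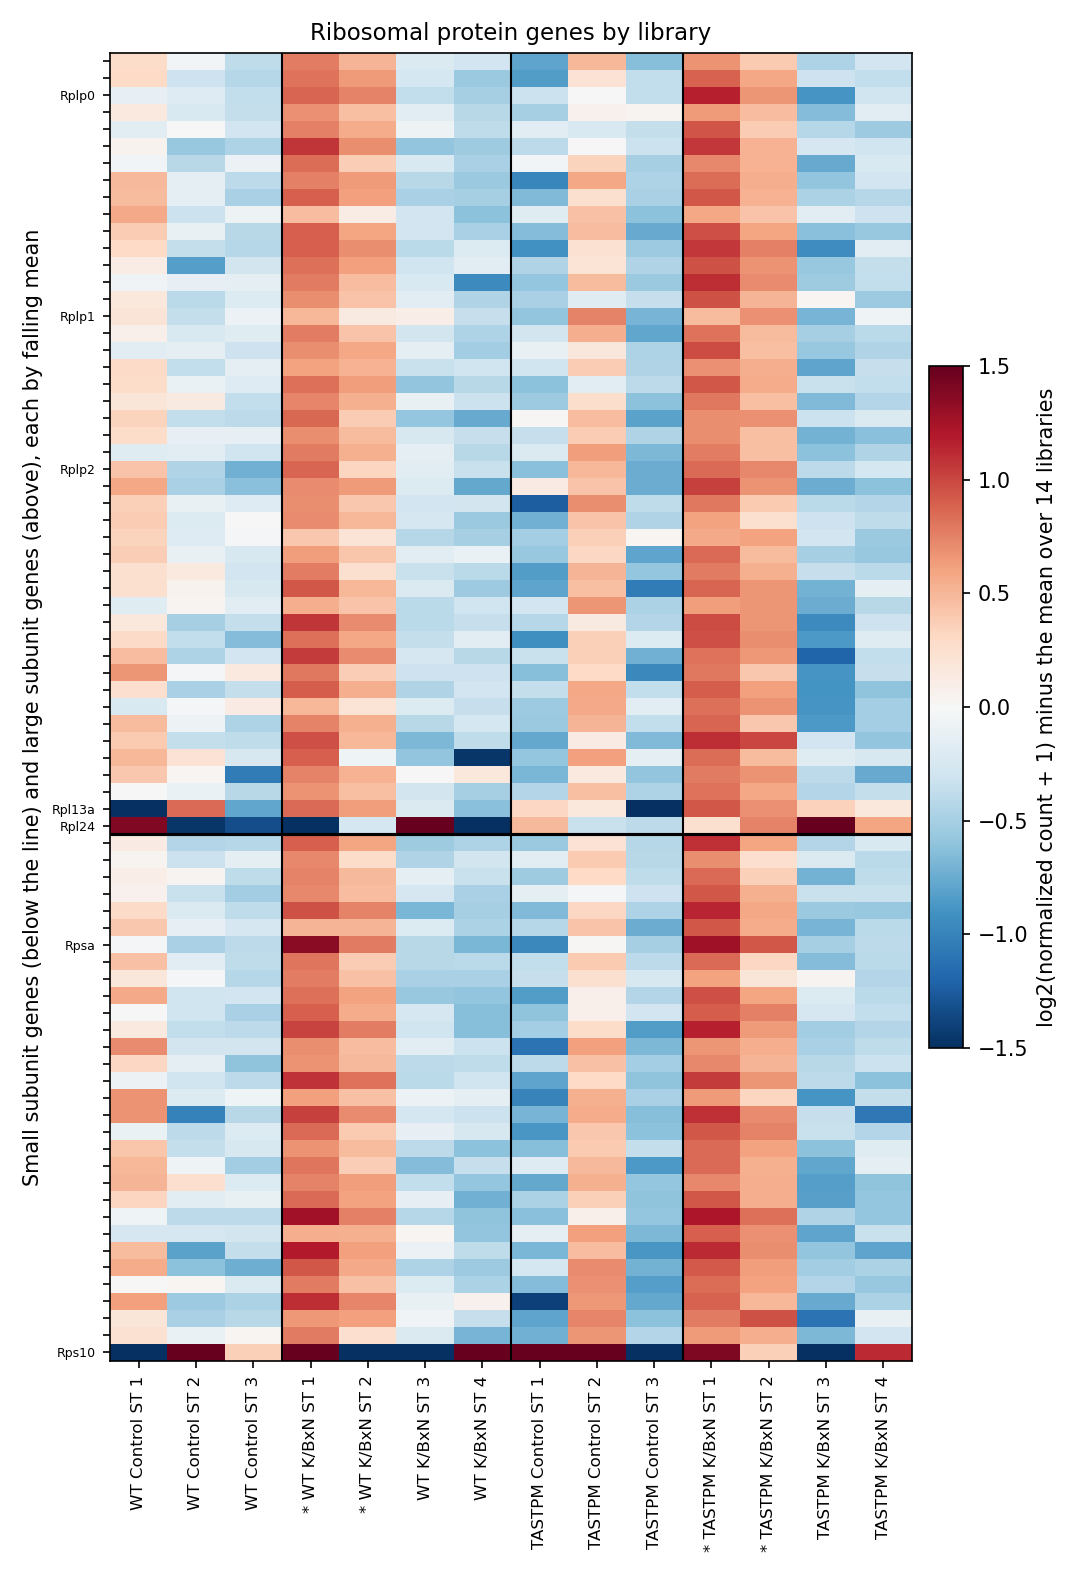
Each row is 1 of the 77 subunit genes and each column 1 library, with color for log2(normalized count + 1) minus the gene's mean over 14 libraries, limited to 1.5 in both directions, an asterisk at the 4 monocyte-marker libraries and names at 7 of the rows. Nearly all rows are red in those 4 columns, with Rpl24 and Rps10 as the exceptions among the K/BxN ST columns.

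In 75 of the 77 subunit genes the 4 monocyte-marker libraries were all above the other 4 K/BxN ST libraries, an order held by 14.4% of all genes tested, and the exceptions were Rpl24 and Rps10. In 41 of the 77 these 4 libraries were above all the other 10, against 7.63% of all genes tested, and no member had them all below the other 10, an order held by 2.51% of all genes tested. The count of those above was 24 of 46 for the large subunit and 17 of 31 for the small subunit. This order is a description without a test. Neutrophil markers took 1.29% of reads in WT K/BxN ST library 1 and 1.18% and 1.19% in TASTPM K/BxN ST libraries 1 and 2. WT K/BxN ST library 2 had 0.0623% of reads on neutrophil markers and 1.18% on ribosomal protein genes. The parts of monocyte and neutrophil RNA in the ribosomal protein values were not tested.

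Rplp0 shows the order in a single gene. WT mice had 8835, 8059, 3722 and 3405 normalized counts of Rplp0 after K/BxN ST, against 4439, 4196 and 3722 after Control ST. TASTPM mice had 10810, 7612, 2612 and 3914 after K/BxN ST, against 3864, 4781 and 3716 after Control ST. The first 2 K/BxN ST libraries of each genotype exceeded every Control ST library and the last 2 fell within or below the range of all Control ST libraries. The other stalk proteins, Rplp1 and Rplp2, which bind as dimers to Rplp0, had their highest values in TASTPM Control ST library 2 (2903 normalized counts) and WT K/BxN ST library 1 (1951 normalized counts). Across the 3 stalk genes the log2 differences between K/BxN ST and Control ST were 0.18 to 0.42 in WT and 0.28 to 0.52 in TASTPM, and none passed the test.

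Rpsa, a small subunit protein also known as the laminin receptor precursor, ranged over 4.97-fold between libraries, against 4.14-fold for Rplp0. WT mice had 6631, 4472, 1953 and 1620 normalized counts of Rpsa after K/BxN ST, against 2576, 1852 and 1982 after Control ST. TASTPM mice had 6281, 4951, 1839 and 1984 after K/BxN ST, against 1335, 2641 and 1840 after Control ST. Libraries 1 and 2 of each K/BxN ST group exceeded every Control ST library, and libraries 3 and 4 lay within the Control ST range of both genotypes together.

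The comparison of K/BxN ST with Control ST asked whether ribosomal protein genes of microglia responded to arthritis. In WT mice 69 of the 77 subunit genes had a log2 difference above 0, beside 54% of the 12645 genes tested. The median was 0.23 for the subunit genes and 0.06 for all genes tested. No ribosomal protein gene was called (0 of 87 at an adjusted p below 0.05 and an absolute log2 difference above 1), where 0.00791% of all genes tested were. None of the 87 had an unadjusted p below 0.05 in limma, where 4.77% of all genes tested were higher and 2.36% lower at that limit, and edgeR and DESeq2 called none either. The K/BxN ST and Control ST libraries overlapped in all 87 genes, while 3.67% of all genes tested were higher and 3.71% lower without overlap. The median SE of a subunit gene was 0.42. The direction rested on the monocyte-marker libraries. Without libraries 1 and 2 of K/BxN ST in each genotype the median of the 87 genes was -0.24, and 13 of the 87 were above 0, of which 11 were also above 0 with all libraries. With a covariate for sex-linked genes (4 Y-linked genes against Xist), added after the data were seen, the median was 0.39.

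The 3 members with the smallest unadjusted p in WT were Rpl36al, Rpl8 and Rps3a3. Rpl8, which lies near the catalytic center of the large subunit, stood at 3524, 3038, 1610 and 1776 normalized counts after K/BxN ST, against 2144, 1122 and 1640 after Control ST. The groups overlapped and the log2 difference was 0.57 ± 0.39 (SE) with an adjusted p of 0.774 in limma. It was -0.0042 with a covariate for monocyte and neutrophil markers. Rpl36al, a paralogue of Rpl36a, stood at 13.5, 21.3, 0 and 16.4 normalized counts after K/BxN ST, against 54.4, 62.9 and 15.3 after Control ST. The groups overlapped, with a log2 difference of -2.16 ± 1.39 (SE) and an adjusted p of 0.760 in limma. Rps3a3, a gene without an annotated coding sequence, had 24.4, 31.9, 9.6 and 14.2 against 8.4, 10.9 and 3.8 normalized counts (exact permutation test, two-sided, p = 0.0857). The exact test for 4 against 3 libraries cannot go below 0.0286.

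In TASTPM mice 76 of the 77 subunit genes had a log2 difference above 0, with Rps10 as the exception, beside 50.4% of all genes tested. The median was 0.35 for the subunit genes and 0.01 for all genes tested. No ribosomal protein gene was called (0 of 87), and 0% of all genes tested were. None of the 87 passed an unadjusted p of 0.05 in limma or edgeR and 1 did in DESeq2, where none was called, and in limma 2.62% of all genes tested were higher and 1.6% lower at that limit. The groups overlapped in all 87, while 2.67% of all genes tested were higher and 2.74% lower without overlap. Without the monocyte-marker libraries the median of the 87 was -0.24 and 8 of the 87 were above 0, of which 7 were also above 0 with all libraries. With the covariate for sex-linked genes the median was 0.02 and 49 of the 87 were above 0. Without TASTPM K/BxN ST library 1 alone it was 0.09, and without TASTPM Control ST library 2, the highest of its group, it was 0.64. In that last fit 6 of the 87 were higher at an unadjusted p below 0.05 in limma, as were 396 of the 12645 genes tested, and no member was called.

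The smallest unadjusted p values in TASTPM belonged to Rpl15, Rpsa and Rpl14. Rpl15, a large subunit protein, stood at 3444, 2526, 1812 and 1222 normalized counts after K/BxN ST, against 1270, 1569 and 1406 after Control ST. Library 4 of K/BxN ST was below all Control ST libraries and the other 3 above them, and the log2 difference was 0.57 ± 0.33 (SE) with an adjusted p of 0.964 in limma. Rpsa differed by 0.81 ± 0.50 (SE) and Rpl14 by 0.59 ± 0.38 (SE), both with an adjusted p of 0.964. With the marker covariate the difference of Rpl15 was 0.0698, and those of Rpsa and Rpl14 were -0.052 and -0.032.

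**Figure D3:**
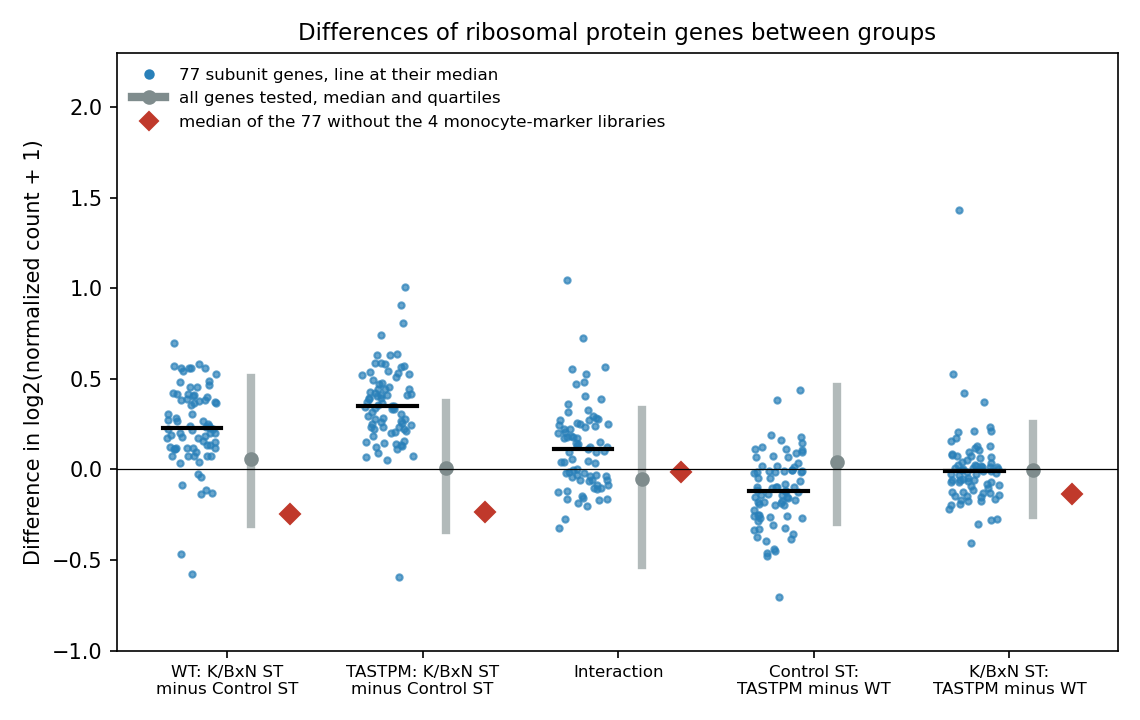
Differences in log2(normalized count + 1) in the 5 comparisons for the 77 subunit genes (points, line at the median), all genes tested (gray, median and quartiles) and, as diamonds, the median of the 77 without the 4 monocyte-marker libraries, drawn where these enter the comparison. The medians under K/BxN ST of 0.23 in WT and 0.35 in TASTPM turn to -0.25 and -0.24 without those libraries. Those libraries had the highest ribosomal protein shares, so a fall was fixed by the choice.

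The interaction asked whether the difference between sera itself differed between the genotypes, and used the same libraries as the comparisons within each genotype. Of the 87 genes 53 were above 0, beside 45.8% of all genes tested, with a median of 0.10 against -0.05. No member was called (0 of 87), as 0% of all genes tested were, and none had an unadjusted p below 0.05 in limma, edgeR or DESeq2. In limma 1.42% of all genes tested were above 0 and 1.63% below 0 at that limit. The median SE was 0.59 for a subunit gene. The smallest unadjusted p values belonged to Rps3a3, to Rpl22, an RNA-binding protein of the large subunit, and to Rps14, a small subunit protein. Rpl22 had an interaction of 0.73 ± 0.69 (SE) and Rps14 of 0.57 ± 0.59 (SE), each with an adjusted p of 0.999 in limma. The median of the members ran from -0.16 without TASTPM K/BxN ST library 1 to 0.39 without TASTPM Control ST library 2, so its sign depended on single libraries. With the covariate for sex-linked genes it was -0.41, and that of Rps14 alone was -0.16.

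The comparison of TASTPM with WT under each serum asked what the transgenes alone changed. Under Control ST 19 of the 77 subunit genes were above 0, beside 53.2% of all genes tested, with a median of -0.12 against 0.04. No member was called (0 of 87, and 0% of all genes tested), and none had an unadjusted p below 0.05 in limma, edgeR or DESeq2, where in limma 3.41% of all genes tested were higher and 2.16% lower at that limit. The median of the 87 was -0.43 without TASTPM Control ST library 2, and it was 0.04 without TASTPM Control ST library 1. It was 0.01 without TASTPM Control ST library 3 and 0.03 without WT Control ST library 1. With the covariate for sex-linked genes it was 0.24, and 73 of the 87 were above 0. Under K/BxN ST 36 of the 77 were above 0, beside 49.9% of all genes tested, with a median of -0.01. No member was called (0 of 87, and 0% of all genes tested). None had an unadjusted p below 0.05 in limma, edgeR or DESeq2, where in limma 1% of all genes tested were higher and 0.902% lower at that limit. With 1 library left out the median of the 87 lay between -0.27, without TASTPM K/BxN ST library 1, and 0.21, without TASTPM K/BxN ST library 3. With the covariate for sex-linked genes it was -0.19.

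No subunit gene separated the genotypes under either serum. Under K/BxN ST the libraries overlapped in all 87 members, while 1.16% of all genes tested were higher and 0.672% lower in TASTPM without overlap. Of the 87 members, Rpl39l and Rps3a2 were higher in all TASTPM Control ST libraries than in all WT Control ST libraries, 2 of 87 or 2.3%, beside 4.97% of all genes tested, and none was lower without overlap, beside 4.71%. Rpl39l, a paralogue of Rpl39 known from the testis, had 11.5, 27.8 and 20.9 normalized counts in TASTPM Control ST and 0, 0 and 11.5 in WT Control ST. The lowest TASTPM value, 11.49, and the highest WT value, 11.46, were almost the same. Its adjusted p was 0.886 in limma, and the exact permutation test gave its smallest possible p for 3 against 3 libraries, 0.10. Rpl39, an X-linked gene whose protein lies in the ribosome exit tunnel, had 435, 836 and 346 against 1077, 671 and 752 normalized counts, with overlap, a log2 difference of -0.70 ± 0.45 (SE) and an adjusted p of 0.916 in limma. Under K/BxN ST the smallest p belonged to Rpl24, at 10.4, 15.2, 41.1 and 13.5 against 1.8, 7.1, 28.7 and 2.2 normalized counts, which overlapped (adjusted p of 1.00 in limma).

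Of the symbols outside the subunit lists, Rps27l, Rps27rt, Rpl37rt and Rpl6l moved with the subunit genes, with SDs of log2 of 0.56 to 0.61 that fell to 0.22 to 0.28 after the subunit median was subtracted. Rps27l is a paralogue of Rps27 that p53 induces, and WT mice had 1450, 1241, 841 and 611 normalized counts of it after K/BxN ST, against 859, 707 and 572 after Control ST. TASTPM mice had 2088, 1430, 571 and 745 after K/BxN ST, against 870, 928 and 510 after Control ST. The 4 monocyte-marker libraries were the 4 highest, as in 41 of the subunit genes. No 100-base window of its transcript occurred elsewhere in GRCm39.

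Rps4l, an autosomal paralogue of the X-linked Rps4x, had a different order of libraries. WT mice had 300, 383, 397 and 596 normalized counts of Rps4l after K/BxN ST, against 442, 407 and 567 after Control ST. TASTPM mice had 228, 572, 593 and 576 after K/BxN ST, against 490, 508 and 680 after Control ST. Of the monocyte-marker libraries 3 were the lowest of the 14 and the fourth, TASTPM K/BxN ST library 2, was not. Rps4x itself had its highest value, 4197 normalized counts, in WT K/BxN ST library 1, where Rps4l was at 300. The log2 differences of Rps4l between sera were -0.20 ± 0.36 (SE) in WT and -0.27 ± 0.36 (SE) in TASTPM, and neither passed the test (adjusted p of 0.902 and 0.966 in limma).

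Rps19bp1 did not move with the subunit genes. It had a mean of 144 normalized counts, and the SD of its log2 level was 0.67 and rose to 0.80 after the subunit median was subtracted. Most of the remaining symbols were low or could share reads with a parent gene. Rpl3l, a paralogue of Rpl3 known from striated muscle, was at 0 in 11 of the 14 libraries, and its 3 values above 0 (13.5, 19.9 and 9.7 normalized counts) were in monocyte-marker libraries. At 76.0% of the 100-base windows of Rps27rt, 76.3% of Rps3a2 and 59.6% of Rpl6l the same sequence occurred elsewhere in GRCm39, so reads could be divided differently by another counting. Rpl6l, Rpl37rt, Rps3a2 and Rps3a3 have no annotated coding sequence. Rps27rt reached 319 normalized counts, Rpl37rt 309 and Rpl6l 190, each in a monocyte-marker library. Among the subunit genes as well, 92.1% of the windows of Rps6 and 85.1% of those of Rpl3 occurred elsewhere.

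The genes that work beside these proteins were counted from lists made by function. Fau and Rack1, ribosome proteins whose symbols the rule does not reach, followed the subunit genes, with 2627, 1998, 1088 and 1355 normalized counts of Fau in TASTPM K/BxN ST against 810, 1890 and 1181 in TASTPM Control ST. The log2 differences between sera were 0.18 for Fau and 0.31 for Rack1 in WT and 0.45 and 0.59 in TASTPM, and none passed the test.

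Translation factors, the initiation and elongation factors that act on the ribosome, took 0.735% to 0.928% of the reads in the 4 monocyte-marker libraries and 0.496% to 0.558% in the other 10. In 11 of the 39 factors (28.2%) those 4 libraries were above the other 10. None of the 39 was called in any of the 5 comparisons, and at an unadjusted p below 0.05 in limma 2 were higher in WT and 4 in TASTPM under K/BxN ST, beside 4.77% and 2.62% of all genes tested. In TASTPM Control ST library 2 and WT Control ST library 1 the share of translation factors was 0.558% and 0.550%, next to 1.01% and 0.877% for ribosomal protein genes.

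Mitochondrial ribosomal proteins, which form the separate ribosome of that organelle, took 0.242% to 0.329% in the monocyte-marker libraries and 0.177% to 0.233% in the other 10. The 4 libraries were above the other 10 in 11 of the 77 mitochondrial genes (14.3%). The same order was present in 3 of 34 ribosome biogenesis factors (8.82%) and in 1 of 16 mTORC1 and TOP mRNA regulators (6.25%), beside the 7.63% of all genes tested. None of these genes was called in limma in any of the 5 comparisons.

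**Figure D4:**
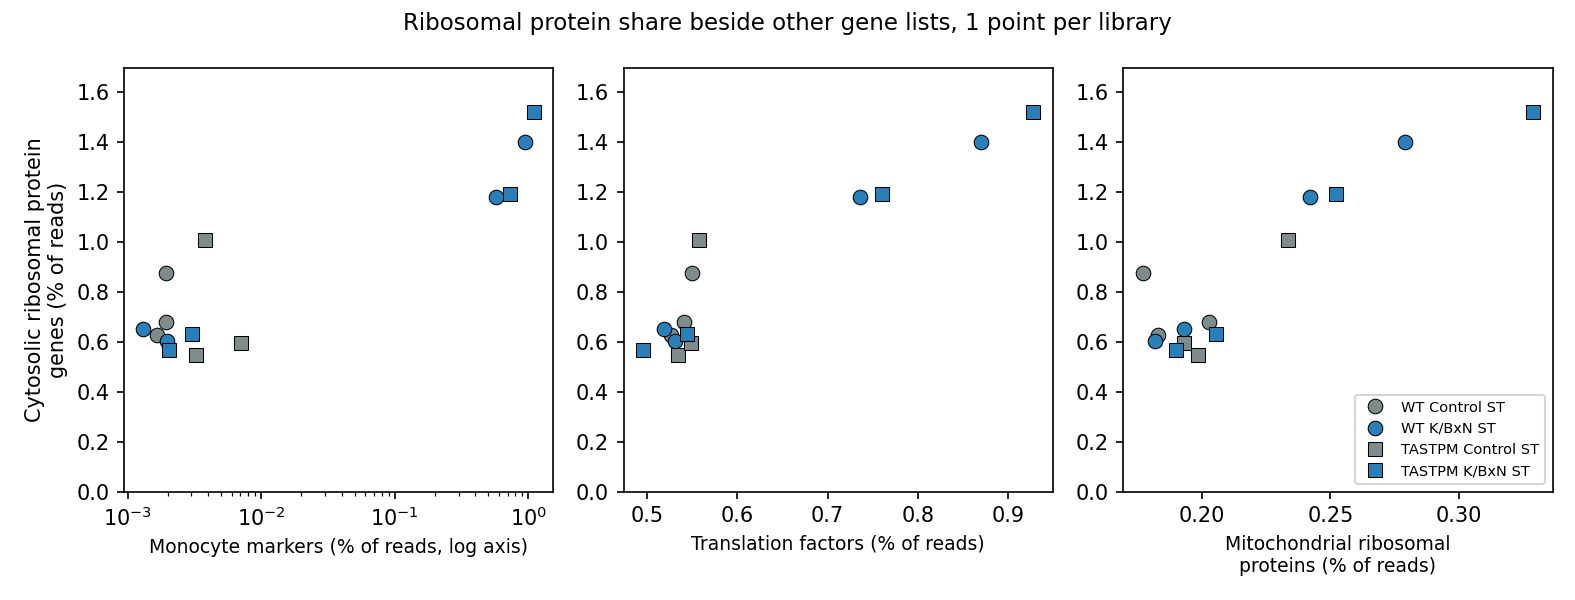
Each point is 1 library, with its share of reads on cytosolic ribosomal protein genes (vertical, %) against its share on monocyte markers (left, log axis), translation factors (middle) and mitochondrial ribosomal proteins (right). The 4 monocyte-marker libraries lie apart at the upper right of each panel, and TASTPM Control ST library 2 (1.01%) and WT Control ST library 1 (0.877%) follow next in height, at 0.558% and 0.550% on translation factors.

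The proportion between the subunits stayed close to constant. Large subunit reads were 1.30 to 1.43 times the small subunit reads over the 14 libraries, with group means of 1.36 ± 0.0512 (SD, n = 4) in WT K/BxN ST, 1.37 ± 0.0511 (SD, n = 3) in WT Control ST, 1.35 ± 0.0539 (SD, n = 4) in TASTPM K/BxN ST and 1.38 ± 0.0473 (SD, n = 3) in TASTPM Control ST. The differences between groups were smaller than these SDs. In the 4 monocyte-marker libraries the ratio was 1.30 to 1.35, and in the other 10 it was 1.31 to 1.43.

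Short and long subunit genes did not keep the same order in every library. The length limits were chosen after the data were seen, and no test was made. Subunit genes with a coding sequence of at most 400 bases (22 genes) and of more than 700 bases (14 genes) had almost the same median deviation in the K/BxN ST libraries. Short minus long was between -0.07 and 0.08 in the monocyte-marker libraries and between -0.07 and 0.10 in the other 4. In WT Control ST libraries 2 and 3 it was 0.19 and 0.09. In WT Control ST library 1 the short genes had a median of 0.40 and the long genes of 0.05. In TASTPM Control ST library 2 they had 0.48 and 0.19, and in libraries 1 and 3 of the same group -0.65 and -0.33, and -0.70 and -0.38. In WT Control ST library 1 and the 3 TASTPM Control ST libraries the short genes lay farther from their mean than the long genes did. Among all other genes tested, the 504 with a short coding sequence had medians of 0.25 to 0.60 in the monocyte-marker libraries, -0.06 in WT Control ST library 1 and 0.24 in TASTPM Control ST library 2.

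**Figure D5:**
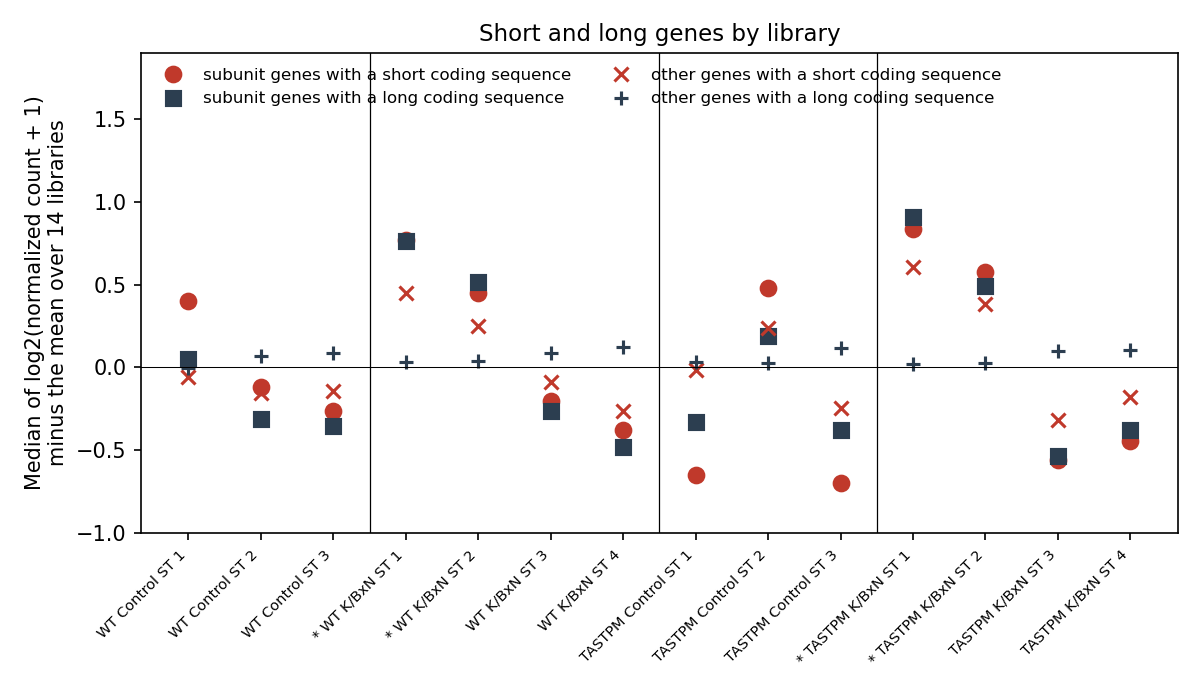
Median of log2(normalized count + 1) minus the 14-library mean, by library, for subunit genes with coding sequences of at most 400 bases (circles, 22 genes) and over 700 bases (squares, 14 genes) and for other genes of the same lengths (crosses). Circles and squares lie within 0.10 of each other in the K/BxN ST libraries (asterisk for monocyte-marker libraries) and part in WT Control ST libraries 1 and 2 and all 3 TASTPM Control ST libraries.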

How the data were processed

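Bulk RNA-seq of sorted microglia was available for 14 libraries, each from an individual mouse according to the study's methods. After SMART-Seq amplification of the cDNA, the authors aligned reads with HISAT2 (2.1) to GRCm39, counted them per gene with featureCounts (1.5.2), by the submitters' processing notes, and normalized them by 1 factor per library, as DESeq2 does, so the deposited values are a normalized signal (called normalized counts) and not read counts. Every value was a whole multiple of 1 read (100%, tolerance 0.01), and reads were recovered for shares and count tests. Of 14336 entries, 7 repeated identifiers were dropped. Each column's group was that named in its header.

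Differences are in log2(normalized count + 1). The 12645 genes that reached 10 reads in 7 or more libraries entered 1 limma 3.58.1 fit (R 4.3.3) with a variance trend and Benjamini-Hochberg adjustment over all of them, where a call needed both an adjusted p under 0.05 and an absolute log2 difference over 1. A fold on this scale understates the change of low genes. Alternatives covered scaling, pseudocount, filter, variance model, edgeR 4.0.16, DESeq2 1.42.0, a marker covariate, a covariate for sex-linked genes (mean log2 of 4 Y-linked genes minus log2 of Xist) and the omission of each library. On simulated data for WT K/BxN ST against WT Control ST, limma recovered 131 of 200 genes (65.5%) changed by 3 on the log2 scale among 12645, with 7 false calls. The simulated dispersions came from the Control ST libraries only. Recovery of changes as small as the subunit median of 0.23 in WT was not simulated. Permutation tests were two-sided and exact. The members, lists and tests were chosen with earlier results of these data known.

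Genes named are those called, the 3 smallest p values of each comparison, the 5 highest and 5 lowest means, the 3 largest and 3 smallest SDs, the stalk proteins and Rpsa, Fau and Rack1, and members outside the subunit lists. Some items that this rule reaches are not reported here. Positions, overlaps and coding lengths came from GRCm39 with GENCODE vM39, which is later than the annotation of the authors. Figures were drawn with matplotlib 3.10.9.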

Additional observations from a re-analysis of the deposited data

Results flagged for a closer look

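In the groups of 4 libraries, 68 values (33 named genes and the share of reads, in each K/BxN ST group) were examined for 1 library standing apart from the other 3, and 5 did. Chance alone gives about 1 in 20 such values. Rpl36al was at 0 normalized counts in WT K/BxN ST library 3. Rps19bp1 was lowest in WT K/BxN ST library 2, at 106 normalized counts, and highest in TASTPM K/BxN ST library 1, at 218 normalized counts. Rpl3l was at 13.5 normalized counts in TASTPM K/BxN ST library 1 and at 0 in the other 3 libraries of that group. Rps4l was lowest in TASTPM K/BxN ST library 1, at 228 normalized counts.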

How the results depend on the processing

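No ribosomal protein gene was called in any comparison under any alternative run. At an unadjusted p below 0.05, 0 of the 87 passed in any comparison of the main limma fit. At most 6 did in any alternative (TASTPM without Control ST library 2), with 4 lower in WT under the marker covariate. Without a variance trend, limma had 2 higher in TASTPM than in WT under Control ST. The median log2 difference of the 87 genes was 0.24 in WT and became -0.25 with the marker covariate, and 0.34 in TASTPM became -0.23. The log2 difference of Rpl8 in WT was then -0.0042, and those of Rpsa and Rpl14 in TASTPM were -0.052 and -0.032. The omission of the 4 monocyte-marker libraries was chosen after seeing the data. These had the highest ribosomal protein shares, so the omission had to lower the medians within each genotype. It gave a median of -0.24 in both genotypes, -0.02 for the interaction and -0.14 for TASTPM against WT under K/BxN ST. A covariate for sex-linked genes, also chosen after seeing the data, gave 0.39 in WT, 0.02 in TASTPM, -0.41 for the interaction, 0.24 for genotype under Control ST and -0.19 under K/BxN ST, and the interaction of Rps14 was then -0.16. With 1 library left out, the median lay between 0.05 and 0.44 in WT, 0.09 and 0.64 in TASTPM, -0.16 and 0.39 for the interaction, -0.43 and 0.04 for genotype under Control ST, and -0.27 and 0.21 under K/BxN ST. The scaling, pseudocount, filter, variance and count-test alternatives changed the sign only of the median under K/BxN ST, which was -0.01 and became 0.002 with library totals, and edgeR and DESeq2 gave 0.01 there.

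Over all genes, 1 gene was called in WT and 0 in each other comparison. In WT the count was 0 with a pseudocount of 5, at least 10 reads in every library, only the libraries of the comparison, edgeR, the marker covariate or without the monocyte-marker libraries, 2 without a variance trend and 127 with DESeq2. DESeq2 called 18 in TASTPM, 12 for the interaction and 41 between genotypes under Control ST, where the marker covariate and the covariate for sex-linked genes each gave 1. With 1 library left out the counts were 0 to 17 in WT, 0 to 1 in TASTPM, 0 to 3 for the interaction and 0 to 11 for genotype under Control ST, where the highest counts in WT and between genotypes came without WT Control ST library 3. The causes were not tested. With the 20 highest genes left out of the denominator, the mean shares rose in all groups, to 1.16% and 0.920% for WT mice with K/BxN and control serum and to 1.17% and 0.901% for TASTPM mice. No paired analysis was possible because the replicate numbers in the labels differ for every sample and none is shared between groups. All 77 subunit genes passed the filter, although Rpl24 and Rps10 had means of only 12.5 and 20.3 normalized counts.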
